A study of Mus musculus with 6 samples.

Results

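The genes described here were 10 genes of the serine synthesis pathway and of the amino acid response driven by the transcription factor ATF4, out of 18193 genes on the arrays. They were chosen by name as Phgdh, Psat1, Psph, Shmt2, Mthfd2, Asns, Atf4, Chac1, Trib3 and Ddit3, and each was represented by the probe set that carries its symbol alone and has the highest mean over the arrays. The cells were A2.miR200c, a mouse ES cell line in which a doxycycline-inducible promoter at the Hprt locus drives the genomic cluster of miR-200c and miR-141. All samples were of this line, grown without feeder cells as embryoid bodies in suspension in serum, and all therefore carried the inducible cluster. Untreated cells received no doxycycline and induced cells received 500 ng/mL on days 2 and 4, with RNA from days 3, 4 and 5 and 1 array for each treatment and day. The arrays held no doxycycline-treated cells without the cluster, so an effect of the drug itself cannot be told apart from an effect of the microRNAs. The culture medium contained nonessential amino acids, a supplement that includes serine, glycine and asparagine.

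Serine is made from the glycolytic intermediate 3-phosphoglycerate by Phgdh, Psat1 and Psph, which act in that order. Shmt2 then splits serine in the mitochondrion into glycine and a folate-bound carbon unit, which Mthfd2 oxidizes on its way to purine and thymidylate synthesis. ATF4 is made when phosphorylation of eIF2 slows general translation, as in amino acid shortage or stress of the endoplasmic reticulum, and it activates genes of amino acid synthesis and uptake and the stress genes Chac1, Trib3 and Ddit3. Its own level is set largely at translation, which an array of transcripts does not measure. Pluripotent cells are known for high use of these pathways in support of their rapid division.

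The microRNAs made on induction are shown for orientation, as mature sequences from RefSeq on GRCm38.p6, each 5′ to 3′ with the seed (bases 2 to 8) in capitals. The seeds differed at 1 base. The cluster lies on the minus strand of chromosome 6, with miR-200c-3p at chr6:124718324-124718346 and miR-141-3p at chr6:124717917-124717938.
mmu-miR-200c-3p: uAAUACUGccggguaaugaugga
mmu-miR-141-3p: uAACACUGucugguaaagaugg

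Values are model-based intensities on a linear scale, on which levels of different genes cannot be compared because each probe set binds with its own strength. Differences are on the scale of log2(intensity + 50) and folds are ratios of intensity + 50, which damps the change of weak genes. A level of 36.7, the 95th percentile of 78 chemosensory receptor genes that these cells should lack, served as background. Median intensity of the 6 arrays lay between 34.51 and 36.94. The locus that carries the cluster behaved as labelled, since Hprt measured 234, 125 and 102 on the untreated arrays of days 3, 4 and 5 and 1671, 2539 and 2977 on the induced arrays. No day was replicated within a treatment, so the difference on a single day has no error and no test. Limma was therefore run over all 6 arrays for the induction effect common to the 3 days and for day 5 against day 3, with the spread taken from how far the 3 daily differences lay from their common value. The 6 arrays are not stated to come from separate cultures, and p-values then measure only the spread between these samples.

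All 10 genes passed the filter on low values and were tested among 9997 genes. Between day 5 and day 3, 6 of the 10 differed over both treatments, as did 3984 of the 9997 genes. The count of 6 fell to 3 without the untreated day 3 array, to 2 without the induced day 3 array and to 3 without day 4. Phgdh, Psat1, Psph and Mthfd2 were lower on day 5, where 19.2% of all genes tested were called lower. Shmt2 and Asns were higher, where 20.6% of all genes tested were called higher. Atf4, Chac1, Trib3 and Ddit3 did not pass. No member passed limma's test for an effect of induction common to the 3 days, in which 0% of all genes were called, 842 genes had an unadjusted p under 0.05 and no adjusted p was below 0.573. Phgdh was the only member with an unadjusted p under 0.05 for induction. The same test did not call Hprt at the induced locus either, although it was 12.1-fold higher on average (limma adjusted p = 0.573). A count of 0 in it therefore says little about the members. The intensities of all 10 genes by day and treatment are plotted next.

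**Figure D1:**
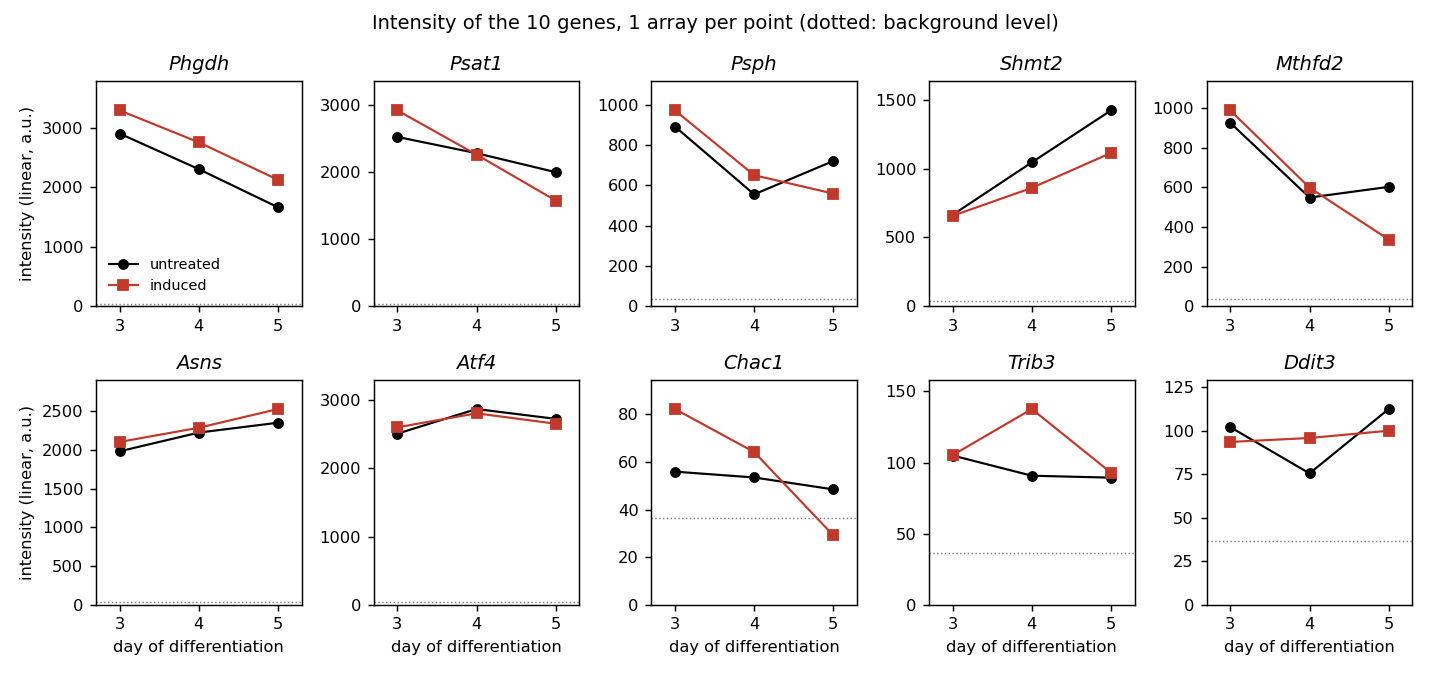
Linear intensity (arbitrary units) of the 10 genes against day of differentiation, with 1 array per point, untreated cells in black circles, induced cells in red squares and the background level of 36.7 as a dotted line. Phgdh declined in both treatments with the induced array higher on each day, Shmt2 climbed in both, and Mthfd2 ended at 602 untreated and 336 induced on day 5.

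Phgdh (Entrez Gene 236539, chromosome 3), the enzyme of the committed step of serine synthesis, declined in both treatments and was higher on the induced array of every day. Its intensity was 2899, 2300 and 1660 on days 3, 4 and 5 in untreated cells and 3288, 2751 and 2121 in induced cells. The 2 treatments overlapped in range, while within a day the induced value lay above the untreated value. From day 3 to day 5 Phgdh fell by 0.70 on the log2 scale (SE 0.063, limma adjusted p = 0.0028), a 1.63-fold decrease. The daily differences between induced and untreated cells were 0.18, 0.25 and 0.34 on the log2 scale, with a mean of 0.26 ± 0.083 (SD over 3 days). This mean did not pass limma's test after adjustment (adjusted p = 0.573). Phgdh, Asns and Trib3 were higher with induction on all 3 days and Shmt2 was lower on all 3, against 19.3% and 14.3% of all genes tested. On day 3 the treatments were almost equal in Trib3 (0.003 on the log2 scale) and in Shmt2 (-0.014).

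Psat1 (Entrez Gene 107272, chromosome 19), the aminotransferase of the second reaction, was higher with induction on day 3 and lower on day 5. Its intensity was 2530, 2287 and 2003 in untreated cells on days 3, 4 and 5 and 2927, 2265 and 1579 in induced cells. The induced array was thus the highest of all on day 3 and the lowest of all on day 5. The daily differences were 0.21, -0.01 and -0.33 on the log2 scale. Psat1 fell by 0.60 on the log2 scale between days 3 and 5 (SE 0.13, limma adjusted p = 0.022). The fall was 1.26-fold in untreated and 1.83-fold in induced cells. The daily shift of the difference between treatments was -0.27 on the log2 scale and did not pass limma's test (adjusted p = 0.177). The call for day 5 against day 3 was lost without the induced day 3 array (adjusted p = 0.099) and without day 4 (adjusted p = 0.054).

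Psph (Entrez Gene 100678, chromosome 5), the phosphatase that releases serine, had its lowest untreated value on day 4. It measured 893, 556 and 722 in untreated cells and 973, 651 and 560 in induced cells. The induced array was higher on days 3 and 4 and lower on day 5, by 0.12, 0.21 and -0.34 on the log2 scale. Psph fell by 0.52 on the log2 scale between days 3 and 5 (SE 0.15, limma adjusted p = 0.048). This call lay close to the threshold and was lost without day 4 (adjusted p = 0.074), without the untreated day 3 array (0.13), without the induced day 3 array (0.22) and without the induced day 5 array (0.086).

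Mthfd2 (Entrez Gene 17768, chromosome 6), the mitochondrial methylenetetrahydrofolate dehydrogenase, showed the largest daily difference between treatments of the 10 genes. Its intensity was 925, 548 and 602 in untreated cells and 988, 598 and 336 in induced cells. The 2 treatments were 1.06-fold apart on day 3 and 1.08-fold on day 4, and on day 5 the induced array was 1.69-fold lower. Over both treatments Mthfd2 fell by 1.003 on the log2 scale between days 3 and 5 (SE 0.23, limma adjusted p = 0.026). The decrease was 1.495-fold in untreated and 2.69-fold in induced cells. The daily shift of the difference between treatments was -0.42 on the log2 scale and did not pass (limma adjusted p = 0.292). The call for day 5 against day 3 was lost without the untreated day 3 array (adjusted p = 0.071) and without the induced day 3 array (0.14).

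Shmt2 (Entrez Gene 108037, chromosome 10), the mitochondrial serine hydroxymethyltransferase, went the other way from the enzymes next to it in the pathway. It measured 665, 1047 and 1425 in untreated cells on days 3, 4 and 5 and 658, 861 and 1115 in induced cells. Each day's value was above that of the day before in both treatments. Shmt2 rose by 0.88 on the log2 scale between days 3 and 5 (SE 0.11, limma adjusted p = 0.0048), which was 2.06-fold in untreated and 1.65-fold in induced cells. The daily differences with induction were -0.01, -0.27 and -0.34 on the log2 scale, with a mean of -0.21 ± 0.17 (SD over 3 days). This mean did not pass limma's test (adjusted p = 0.573).

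More of all genes tested differed by 1.5-fold between treatments on each later day, and 1 of the 10 members did so, on day 5. These counts of members lay near the shares of all genes tested. On day 3 no member differed by 1.5-fold, where 0.0900% of all genes tested were higher with induction and 0.200% lower. On day 4 no member differed by 1.5-fold either, where 1.03% were higher and 1.39% lower. On day 5 Mthfd2 alone was at least 1.5-fold lower, where 3.51% of all genes were lower and 5.24% higher. The median difference of the 10 genes was 0.09, 0.13 and -0.22 on the log2 scale on days 3, 4 and 5. That of the 5 serine and folate enzymes was 0.12, 0.12 and -0.34, and that of all genes tested was 0.005, 0.015 and 0.016. With induction, 8 members were higher on day 3, 7 on day 4 and 3 on day 5, against 5177, 5402 and 5323 of the 9997 genes tested. No member passed limma's test of a daily shift in the difference between treatments, in which 0% of all genes were called, 1322 genes had an unadjusted p under 0.05 and no adjusted p was below 0.105. Psat1 and Mthfd2 were the 2 members with an unadjusted p under 0.05.

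**Figure D2:**
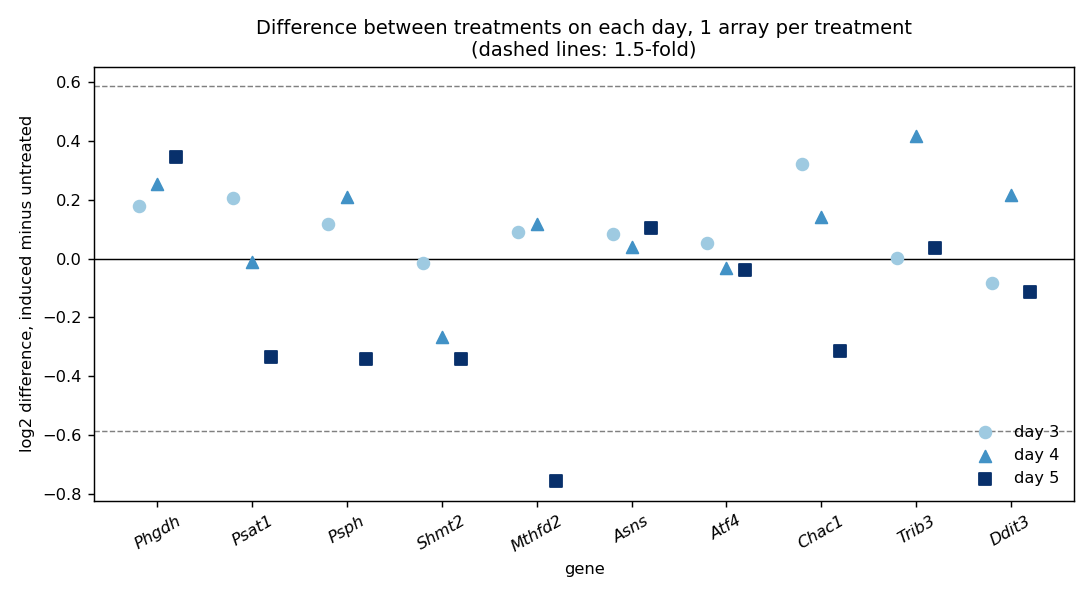
Log2 difference between the induced and the untreated array of a day for the 10 genes, with pale circles for day 3, triangles for day 4, dark squares for day 5 and dashed lines at 1.5-fold. Day 5 values of Psat1, Psph, Shmt2 and Chac1 lie near -0.33 and that of Mthfd2 at -0.76, while Phgdh is above 0 on each day.

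Seen within a treatment, more members were lower at the end of the time course in induced cells. In untreated cells Phgdh was at least 1.5-fold lower on day 5 than on day 3, where 11.8% of all genes tested were lower, and Shmt2 was at least 1.5-fold higher, where 12.5% were higher. In induced cells Phgdh, Psat1, Psph, Mthfd2 and Chac1 were at least 1.5-fold lower, where 8.95% of all genes were lower. Chac1 reached the filter on low values only through its induced day 3 value of 82.3 and ended below background, so its place in this count was set by the filter. Shmt2 was higher there too, where 11.8% were higher. Mthfd2 in untreated cells lay just under the limit, at 1.495-fold. The median change of the 5 enzymes was -0.33 in untreated and -0.75 in induced cells on the log2 scale, and that of all genes tested was -0.02 and 0.02. Each of these changes rests on 2 arrays and was not tested within a treatment.

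**Figure D3:**
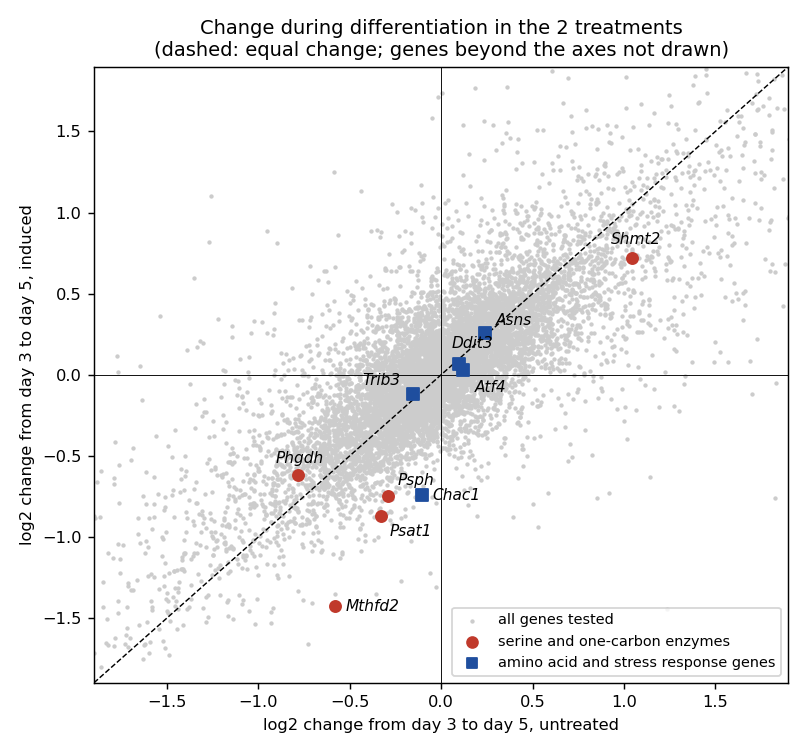
Log2 change from day 3 to day 5 in untreated cells (horizontal) against that in induced cells (vertical) for all genes tested in grey, the serine and folate enzymes in red circles and the genes around Atf4 in blue squares, with a dashed line of equal change. Mthfd2, Psat1, Psph, Shmt2 and Chac1 lie under the line, with Mthfd2 at -0.58 untreated and -1.43 induced, and Phgdh lies above it.

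Other probe sets of the same genes gave a check on these values. The 10 genes had 23 probe sets with their symbol alone, of which 13 were not the main one and 11 of those were above background on all arrays. On day 5 all 11 had the same sign of the difference between treatments as the main probe set, against 9 on day 3 and 7 on day 4. Psph and Chac1 had 1 probe set each and so no such check. The second probe set of Ddit3, above background on 5 arrays and so not among the 11, had the opposite sign on day 5 (0.10 against -0.12). The change from day 3 to day 5 had the same sign in 11 of 11 in untreated and 10 of 11 in induced cells. The 3 further probe sets of Phgdh were higher with induction on all 3 days, with mean differences of 0.23, 0.16 and 0.20 on the log2 scale. The second probe set of Mthfd2 measured 555 untreated and 331 induced on day 5, a difference of -0.67. The further probe sets of Shmt2 were higher on day 5 than on day 3 in both treatments, by 0.46 to 1.05 on the log2 scale, but 2 of the 3 were higher with induction on day 3. A lower Shmt2 with induction on all 3 days therefore held for the main probe set and for 1 other.

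**Figure D4:**
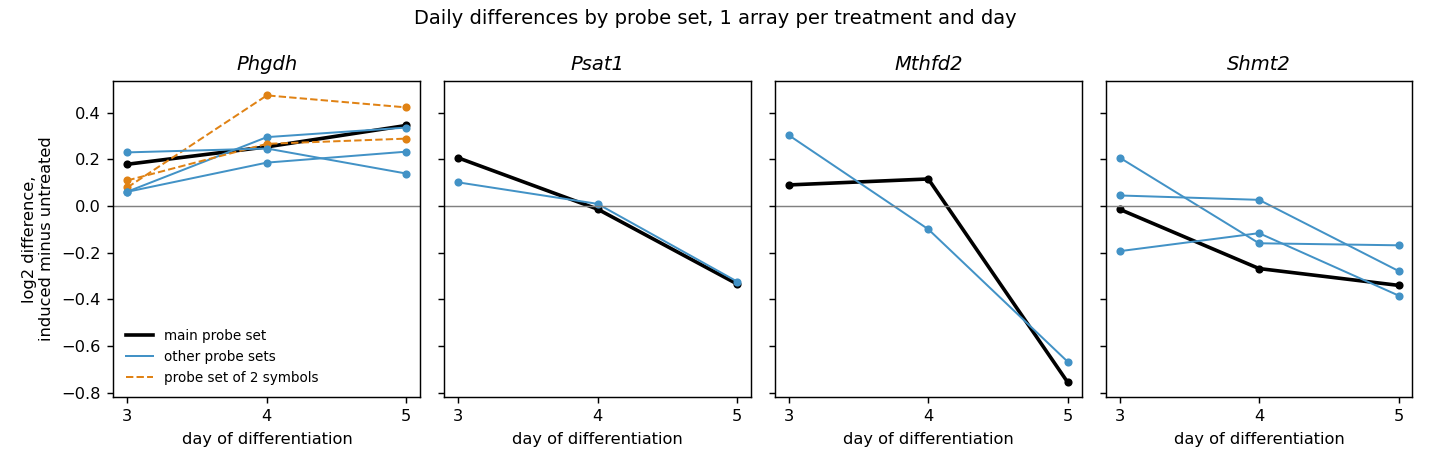
Log2 difference between the induced and the untreated array by day for each probe set of Phgdh, Psat1, Mthfd2 and Shmt2, with the main probe set in black, other probe sets of the gene alone in blue and probe sets that carry 2 symbols dashed in orange. All probe sets of Psat1, Mthfd2 and Shmt2 are below 0 on day 5, and all probe sets of Phgdh are above 0 on each day.

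Asns (Entrez Gene 27053, chromosome 6), asparagine synthetase and a standard reporter of the amino acid response, rose by a small and similar amount in both treatments. It measured 1982, 2224 and 2351 in untreated cells on days 3, 4 and 5 and 2103, 2287 and 2528 in induced cells. The increase from day 3 to day 5 was 0.25 on the log2 scale (SE 0.056, limma adjusted p = 0.022), or 1.19-fold. Induction changed it by a mean of 0.07 ± 0.032 on the log2 scale (SD over 3 days), which did not pass (limma adjusted p = 0.636). The call for day 5 against day 3 was lost without day 4 (adjusted p = 0.073), without the untreated day 3 array (0.12) and without the induced day 3 array (0.10).

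Atf4 itself (Entrez Gene 11911, chromosome 15) kept within a narrow range on the 6 arrays, from 2507 on the untreated day 3 array to 2868 on the untreated day 4 array. Induced cells measured 2600, 2806 and 2652 on days 3, 4 and 5. The daily differences were 0.05, -0.03 and -0.04 on the log2 scale, and neither induction (limma adjusted p = 0.978) nor day (adjusted p = 0.329) passed. A second probe set ranged from 1385 to 1525, and a further one was below background on all 6 arrays.

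Chac1, Trib3 and Ddit3, genes switched on strongly in the integrated stress response, were weak on these arrays. Chac1 (Entrez Gene 69065, chromosome 2), which degrades glutathione, measured 56.0, 53.5 and 48.5 in untreated cells and 82.3, 64.2 and 29.1 in induced cells. The induced array was the highest of all on day 3 and under the background of 36.7 on day 5. Its change from day 3 to day 5 was -0.42 on the log2 scale and did not pass (limma adjusted p = 0.129), although it passed without the untreated day 5 array (adjusted p = 0.016).

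Trib3 (Entrez Gene 228775, chromosome 2), a pseudokinase that binds ATF4 and limits its activity, stood out on day 4. It measured 105, 90.7 and 89.4 in untreated cells and 105, 138 and 92.8 in induced cells. The day 4 difference was 0.41 on the log2 scale and that of the second probe set 0.72, from 60.8 untreated and 133 induced. Neither induction (limma adjusted p = 0.698) nor day (adjusted p = 0.487) passed for the main probe set.

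Ddit3 (Entrez Gene 13198, chromosome 10), which encodes the C/EBP family factor CHOP, measured 102, 75.5 and 113 in untreated cells and 93.6, 95.9 and 100.1 in induced cells. The induced values lay within the range of the untreated ones, and neither test passed (limma adjusted p = 0.991 for induction and 0.658 for day). A second probe set, above background on 5 arrays, had daily differences of 0.03, -0.20 and 0.10 on the log2 scale. Those of the main one were -0.08, 0.22 and -0.12. From day 3 to day 5 the second changed by -0.32 untreated and -0.25 induced, and the main one by 0.10 and 0.06.

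Promoters of the members were searched for the 8-base core TGATGNAA of the C/EBP-ATF composite element, which ATF4 binds with a C/EBP partner, on both strands of the 250 bases before and 50 after each start in RefSeq on GRCm38.p6. All 10 genes matched, with 11 promoters. The letters were present in promoters of Asns, Chac1 and Trib3, and in 3.97% of all 32851 promoters. The cyclic AMP response element TGACGTCA (1.79% of all promoters) and the E-box CACGTG (7.15%), neither of which can lie within a match to the composite core, matched no member promoter. The 3 windows are shown because they hold the letters of this element in genes described as ATF4 targets, with 30 bases each on the strand of the gene and the match in capitals. The window of Asns is at chr6:7693214-7693243, with the match beginning 23 bases before the start. That of Chac1 is at chr2:119351038-119351067, beginning 193 bases before the start. That of Trib3 is at chr2:152344028-152344057, beginning at base 15 after the start. Matches in Chac1 and Trib3 are on the other strand and appear as the reverse complement.
Asns promoter window: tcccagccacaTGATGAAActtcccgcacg
Chac1 promoter window: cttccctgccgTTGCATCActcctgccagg
Trib3 promoter window: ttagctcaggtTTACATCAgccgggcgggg
A match is a description of these letters, and binding was not measured. Among these 3 genes Asns alone passed for day 5 against day 3.

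Of the other genes of serine and folate metabolism, 13 of 20 listed were tested and 6 of them fell between days 3 and 5, with none that rose, where 19.2% of all genes tested were lower and 20.6% higher. These were Mthfd1, Mthfd1l and Shmt1 of the folate cycle, the mitochondrial folate carrier Slc25a32, and Ahcy and Cbs, which handle homocysteine. Slc25a32 showed the largest fall of them, 0.97 on the log2 scale (SE 0.10, limma adjusted p = 0.0038), from 444 and 518 on day 3 to 216 and 225 on day 5. Mthfd1 fell by 0.51 (adjusted p = 0.0026). The median change of the list was -0.28 on the log2 scale and that of all genes tested 0.003. Gldc, the glycine decarboxylase that pairs glycine breakdown with the folate pool, measured 2102, 1523 and 884 in untreated cells and 2051, 1962 and 1857 in induced cells. It was thus 1.03 higher with induction on the log2 scale on day 5, and neither the difference between days (limma adjusted p = 0.086) nor that between treatments (adjusted p = 0.574) passed. With treatment by day added to the fit, where 145 of the 9997 genes tested passed, the treatment difference of Gldc passed (adjusted p = 0.036). Sfxn1, a mitochondrial serine transporter, was lower with induction on all 3 days, by -0.11, -0.32 and -0.38 on the log2 scale, and did not pass.

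Of the amino acid transporters described as ATF4 targets, 9 of 10 were tested, of which Slc1a4 rose between days 3 and 5 and Slc7a3, Slc7a5 and Slc3a2 fell. Of all genes tested, 20.6% were higher on day 5 and 19.2% lower. The median change of the 9 genes was -0.25 on the log2 scale. The cationic amino acid transporter Slc7a3 fell by 3.33 on the log2 scale (SE 0.41, limma adjusted p = 0.0050). It measured 3763, 1700 and 158 in untreated cells and 3842, 2375 and 659 in induced cells. Slc7a5 and Slc3a2, which together form the large neutral amino acid exchanger, fell by 1.07 and 0.27. Slc1a4, a carrier of neutral amino acids that include serine, rose by 0.71 (adjusted p = 0.014), from 146 and 158 to 236 and 332. Slc7a1 was at 1253 untreated and 624 induced on day 3, the only day on which the treatments were 1.5-fold apart in this gene. It did not pass either test. Its mean difference with induction was -0.22 on the log2 scale, and -0.04 with the mean of its 3 probe sets.

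All 12 tRNA synthetases described as ATF4 targets were tested, and 6 of them (Aars, Cars, Lars, Mars1, Nars and Wars) fell between days 3 and 5. None rose, where 19.2% of all genes tested were lower and 20.6% higher. Of the 6 calls, 2 held without the untreated and 2 without the induced day 3 array, and only Aars under every alternative run. The median change of the 12 genes was -0.25 on the log2 scale. The falls were between 0.15 for Nars and 0.58 for Cars on the log2 scale, and daily differences between treatments in the 12 genes did not reach 1.5-fold. Sars and Eprs, which charge tRNAs for serine and for glutamate and proline, had mean differences with induction of 0.12 and -0.10 and passed no test. Of the further described targets of ATF4, 15 of 19 were tested, of which 3 rose and 4 fell, with a median change of 0.15. These counts stand against the same 20.6% higher and 19.2% lower of all genes tested. The lipoprotein receptor gene Vldlr rose by 2.53 (SE 0.10, limma adjusted p = 0.0013), from 263 untreated and 179 induced on day 3 to 1937 and 1153 on day 5. Vldlr was lower with induction on all 3 days, by -0.45, -0.59 and -0.72, and did not pass for induction (adjusted p = 0.573). It passed with treatment by day in the fit (adjusted p = 0.029), where 145 of the 9997 genes tested did. Ddit4, an inhibitor of mTORC1, and Cebpb rose by 0.96 and 0.48, while Cebpg, Sesn2, Eif4ebp1 and Gpt2 fell by 0.37 to 0.52.

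Upstream of ATF4, 6 of 7 genes of the eIF2 kinases and their partners were tested. Beside the calls between days in this paragraph, 20.6% of all genes tested were higher on day 5 and 19.2% lower. Eif2ak4, the kinase GCN2 that senses uncharged tRNA, rose by 0.41 (limma adjusted p = 0.026) and Eif2ak3, the endoplasmic reticulum kinase PERK, fell by 0.65 (adjusted p = 0.023). Neither call held with the mean of probe sets, without day 4 or without the untreated day 3 array. Eif2ak2, the kinase PKR, and Ppp1r15b, which helps to remove the phosphate from eIF2, had mean differences with induction of -0.05 and -0.12 and passed no test. Of 15 genes of the ATF6 and XBP1 arms of the unfolded protein response, Edem1 and Sel1l rose and Creld2, Dnajb9, Hyou1 and Pdia4 fell, and 9 did not pass. Among those 9, Dnajc3 and Sdf2l1 had mean differences with induction of -0.18 and -0.14. The median change between days 3 and 5 was 0.02 in that list and 0.006 in the eIF2 list. No gene of these 6 lists passed limma's test for induction or for a daily shift in its effect as fitted here. With treatment by day in the fit, which leaves 1 residual degree of freedom, 145 of the 9997 genes tested passed for induction. Gldc, Slc7a3, Vldlr and Ddit4 were among them (limma adjusted p = 0.036, 0.036, 0.029 and 0.037). Of the 31 calls for day 5 against day 3 in the 6 lists, 8 (Mthfd1, Slc25a32, Ahcy, Slc7a5, Slc7a3, Aars, Vldlr and Creld2) held under every alternative run, and 9 held without the untreated day 3 array, the alternative that lost the most.

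**Figure D5:**
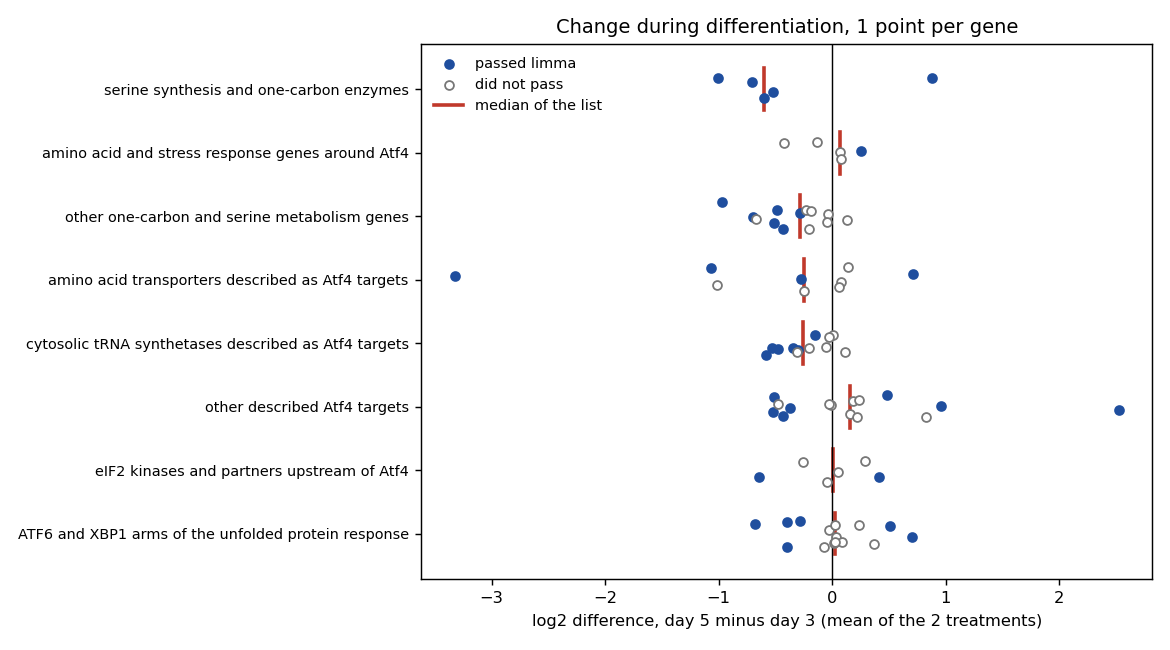
Log2 difference between day 5 and day 3, averaged over the treatments, with 1 point per gene tested for the 2 groups of members and the 6 other lists, filled where limma's adjusted p was under 0.05, and a red bar at the median of each list. The median is -0.60 for the serine and folate enzymes, 0.07 for the genes around Atf4, and lies below 0 in the lists of folate metabolism, transporters and tRNA synthetases.

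Markers of cell types also differed between these arrays. A sum gives the brightest probe sets the most weight. The summed intensity of 6 pluripotent cell markers, all above background on every array, was 19158, 12670 and 3206 in untreated cells on days 3, 4 and 5 and 18692, 14290 and 7761 in induced cells. That of 5 early mesoderm markers, 3 of them above background on every array, was 266, 9130 and 13034 in untreated cells and 223, 3813 and 12354 in induced cells. Aplnr (6124 and 5860) was the largest single part of the similar mesoderm sums on day 5. These covered members that went both ways, with Kdr 1.77-fold and Pdgfra 1.85-fold lower and Mixl1 1.94-fold higher with induction. The 7 extraembryonic endoderm markers summed to 585, 2391 and 4264 untreated and 526, 1333 and 5168 induced. Afp and Apoa1 were below background on all arrays. Sox17 (2914 untreated and 3875 induced) was the largest single part of the day 5 endoderm sums, and the paper names it among epiblast markers. With induction on day 5, Gata6 was higher (816 and 893), while Gata4 (268 and 157) and Dab2 (215 and 180) were lower. Ttr (34.65 and 41.98) lay near background. The 6 feeder fibroblast markers summed to between 209 and 322, with 1 above and 1 (Lum) below background on all arrays. The pluripotent sum was therefore higher in induced cells on day 5. There 7 of the 10 members were lower, Mthfd2, Psat1, Psph and Shmt2 among them, and 3 higher, Phgdh among them. Gldc and Slc7a3 were higher, while 8 of the 13 genes tested in the list of Gldc and 5 of the 9 in that of Slc7a3 were lower. The part of cell makeup in these values was not tested. In RNA of whole embryoid bodies, fewer cells of a type and less RNA per cell cannot be told apart.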

How the data were processed

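Total RNA of 6 samples, 1 for each of 2 treatments and 3 days, was hybridized to Affymetrix MOE430 2.0 arrays. The deposited values are intensities that the authors normalized and modelled in dChip, as linear values without detection calls, and the version and options are not given in the sources used here. Of 45037 probe sets, 34945 carried 1 gene symbol, 932 several and 9160 none, and only the first were used, with the probe set of the highest mean standing for a gene. Values were taken as log2(intensity + 50). A gene was tested if its highest value reached 80.1, the median of all gene values. The number of arrays limits the precision.

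Testing used limma 3.58.1 in R 4.3.3 (lmFit, eBayes with an intensity trend, two-sided, Benjamini-Hochberg at 0.05 over 9997 genes). Induction and day 5 against day 3 came from a model of treatment and day as a factor, with 2 residual and 3.05 prior degrees of freedom. The daily shift in the effect of induction added treatment by linear day, with 1 residual and 4.78 prior degrees of freedom. The scripts were tested on simulated data. Differences resting on 2 arrays were not tested and were counted at 1.5-fold.

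The 10 members and the 6 other lists were chosen with earlier results of these data known, so their counts are not independent support. Named were all members, of each list the 3 tested genes with the largest mean difference each for treatment and for day and any that passed, the 6 genes outside the lists most like the members' mean profile, and Hprt. Some listed genes and markers were not analysed here.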

Additional observations from a re-analysis of the deposited data

Results flagged for a closer look

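A pair of probe sets that carry Phgdh with a second symbol gave signal above background on every array, outside the probe sets used for the comparisons. The one shared by Phgdh and Gm8096 had its lowest intensity, 386, on the untreated day 5 array and its highest, 1004, on the induced day 3 array. The one shared by Phgdh and Gm6756 had its lowest intensity, 1589, and its highest, 2819, on the same 2 arrays. Both were higher with induction on all 3 days, by 0.08, 0.47 and 0.42 on the log2 scale for the first and by 0.11, 0.27 and 0.29 for the second. Which of the symbols gave the signal was not tested.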

How the results depend on the processing

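Of the 13 alternatives run for day 5 against day 3, Phgdh and Shmt2 passed in all. Members called numbered 6, and 2 to 7 when an array or day 4 was left out: 3 without day 4 (Phgdh, Shmt2, Mthfd2), 3 without the untreated day 3 array (Phgdh, Psat1, Shmt2), 2 without the induced day 3 array and 7, with Chac1, without the untreated day 5 array. Over all genes the call count was 3984, and 1362 (without the untreated day 3 array) to 4254 with an array or day left out. Psph was lost with no filter (adjusted p = 0.061), median scaling (0.063), the mean of probe sets (0.058) and no trend (0.065), Asns with no trend (0.054), and Chac1 passed with treatment by day in the fit (0.046). For induction no member was called under any alternative, while genes called rose from 0 to 145 with treatment by day in the fit, Gldc, Slc7a3, Vldlr and Ddit4 among them, and ranged from 0 to 2 with a day left out, the 2 without day 5, Hprt among them. For the daily shift in the effect of induction no member was called, and genes called went from 0 to 11 with a pseudocount of 100 and 2 with quantile normalization. At 2-fold in place of 1.5-fold, members past the limit went from 1 to 0 on day 5, from 2 to 1 (Shmt2) in the untreated change and from 6 to 1 (Mthfd2) in the induced change.

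Values of members that changed sign had not been called. For induction these were Psph (0.013), Atf4 (0.0052) and Ddit3 (-0.0057) with quantile normalization, and Ddit3 (-0.0088) with the mean of probe sets. With each day left out in turn, induction estimates ranged from -0.17 to 0.096 for Psat1, -0.11 to 0.16 for Psph and -0.33 to 0.10 for Mthfd2, all 3 above 0 without day 5. They ranged from -0.034 to 0.010 for Atf4 (above 0 without day 4 or day 5), -0.087 to 0.23 for Chac1 (below 0 without day 3) and -0.099 to 0.067 for Ddit3 (below 0 without day 4). For day 5 against day 3 it was Ddit3 (-0.10 with the mean of probe sets, and -0.012 to 0.17 with an array or day 4 left out, the lowest without the untreated day 5 array). For the daily shift these were Asns (-0.027 with median scaling, -0.0075 with quantile normalization, -0.0059 with the mean of probe sets), Trib3 (-0.0088, -0.00080 and -0.044 in the same order) and Ddit3 (0.0094 with the mean of probe sets). The cause was not tested. Among the other named genes, 32 estimates for induction and 22 for day 5 against day 3 changed sign over all alternatives. The labels give no replicate numbers, so the day factor is the only pairing, and the daily shift could not be fitted with a day left out. Without detection calls, values near background, as in Chac1, Trib3 and Ddit3, are the least certain.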

Other observations

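Across the 6 arrays, the mean standardized level of the 10 members was 0.005, -0.24 and 0.02 in untreated cells on days 3, 4 and 5 and 0.39, 0.33 and -0.49 in induced cells. The 6 genes outside the lists whose values were most like this profile were Cnot9 (Pearson r = 0.99), Arrdc3 (0.99), Cir1 (0.98), Gaa (0.97), Pcdh19 (0.95) and Zfp691 (0.95), each over 6 arrays that share the members' libraries, and they were picked as the best of all genes tested. Gaa, the lysosomal acid alpha-glucosidase, measured 711, 592 and 639 in untreated cells and 837, 764 and 476 in induced cells. Pcdh19, a protocadherin, measured 83.2, 79.7 and 80.4 in untreated cells and 112.8, 109.0 and 44.2 in induced cells. Neither passed limma's test for day 5 against day 3 (adjusted p = 0.121 for Gaa and 0.199 for Pcdh19).

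Cth, which makes cysteine from cystathionine and is listed as an ATF4 target, measured 1167, 1672 and 812 in untreated cells and 1162, 1688 and 1594 in induced cells, so that the treatments were alike on days 3 and 4 and 0.93 apart on the log2 scale on day 5. Its change from day 3 to day 5 was -0.03 (limma adjusted p = 0.94) and became 0.43 without the untreated day 5 array (adjusted p = 0.0076). Ddit4 measured 1164 untreated and 2034 induced on day 3, a difference of 0.78 that went to -0.15 on day 5. Jdp2 measured 179 untreated and 50.9 induced on day 5. It was above background on 3 arrays and reached the filter on low values only through that untreated day 5 value. Its place among the genes tested was therefore set by the same value that makes the difference. No gene of these 3 passed limma's tests for induction or for a daily shift in its effect as fitted here. With treatment by day in the fit, where 145 of the 9997 genes tested passed for induction, Ddit4 did (adjusted p = 0.037).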
